A study of Bos taurus with 20 samples.

Results

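The genes described here are 90 of the 97 genes that the study placed in 1 coexpression module of maternal blood, named midnightblue, out of 37063 genes in the count files. The 7 genes whose symbols begin with an interferon-linked prefix (IFI27, TRIM56, MX2, IRF8, ISG20, IRF7 and IFIT5) were left out. Blood came from 20 recipient cows on day 63 of gestation, each carrying a female beef-breed fetus from an in vitro embryo made with X-sorted semen, and 1 library was sequenced per cow. All cows form 1 group, and the variable that sets them apart in the labels is the birth weight (BW) of the calf each delivered later, which ran from 30 to 72.5 kg with a median of 44 kg. The study formed the module from the likeness of expression across these cows and selected it on its negative correlation with BW. Both of these are therefore given below as descriptions, without a p-value. Each cow is named below as the recipient of the calf of that BW.

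Whole blood holds neutrophils, monocytes, lymphocytes, platelets and red cells, so a level in it depends on how many cells of a type are present and on how much RNA each holds, and these cannot be told apart here. Monocytes and dendritic cells take up material into endosomes and lysosomes, sense nucleic acids there through toll-like receptors, and load peptides onto MHC class II molecules. Type I interferon, which the ruminant conceptus also secretes early in pregnancy, switches on antiviral genes in circulating leukocytes.

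The libraries held 24632077 to 39892111 counts with a median of 33412740, and the labels name no batch. No pair of libraries agreed within sampling noise. The total count had R = 0.02 (n = 20) with the first principal component of the 90 members, called their eigengene below. The share of counts from globin genes had R = 0.43 and rho = 0.662 with the eigengene, and its part in the results was not tested. Of the marker genes, those usable as tested genes outside the module were 18 of 18 for B cells, 18 of 18 for T cells, 13 of 14 for monocytes, 14 of 15 for neutrophils and 13 of 14 for red cells, but 3 of 10 for eosinophils. For neutrophil granules they were 11 of 22, for interferon-stimulated genes 36 of 48 and for MHC class II 17 of 21.

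Of the 90 members, 68 carry a gene name and 22 a provisional LOC number. In the reference gene table, protein-coding genes number 80, long noncoding RNAs 8, pseudogenes 1 and immunoglobulin segments 1. Counts reached 10 in at least 5 cows for 86 members, and these are the members tested below. CRISP3, GRIN2B, H2BC8 and LOC112447090 did not pass. CRISP3 was at 0 in 11 cows and reached 1.26 CPM (counts scaled to a fixed library total) in the recipient of the 35 kg calf. H2BC8 was at 0 in 13 cows and reached 0.563 CPM in the recipient of the 30 kg calf. GRIN2B, a glutamate receptor subunit, was at 0 in 6 cows and reached 1.29 CPM in the same cow.

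The members were largely high in the same cows and low in the same cows. Below, the cows are also given as the 10 of calves of at most 43 kg and the 10 of calves of at least 45 kg, a split chosen after the values were seen, in genes selected on BW, so differences between the sets are descriptions. Every one of the 90 members had its highest level in a cow whose calf weighed 43 kg or less. The recipient of the 30 kg calf held the highest level of 20 members, that of the 37 kg calf of 18, and those of the 35 and 43 kg calves of 16 each. The lowest levels lay most often in the recipients of the 56 kg calf (20 members), the 47.4 kg calf (16) and the 46 kg calf (13). A member at 0 in several cows was counted for 1 of them. Among the 86 tested members, 84 had their highest level in the 10 cows of calves of at most 43 kg and their lowest in the 10 cows of calves of at least 45 kg. This held for 27.5% of all 16269 genes, and since the module was chosen by BW nothing is read from the difference.

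**Figure D1:**
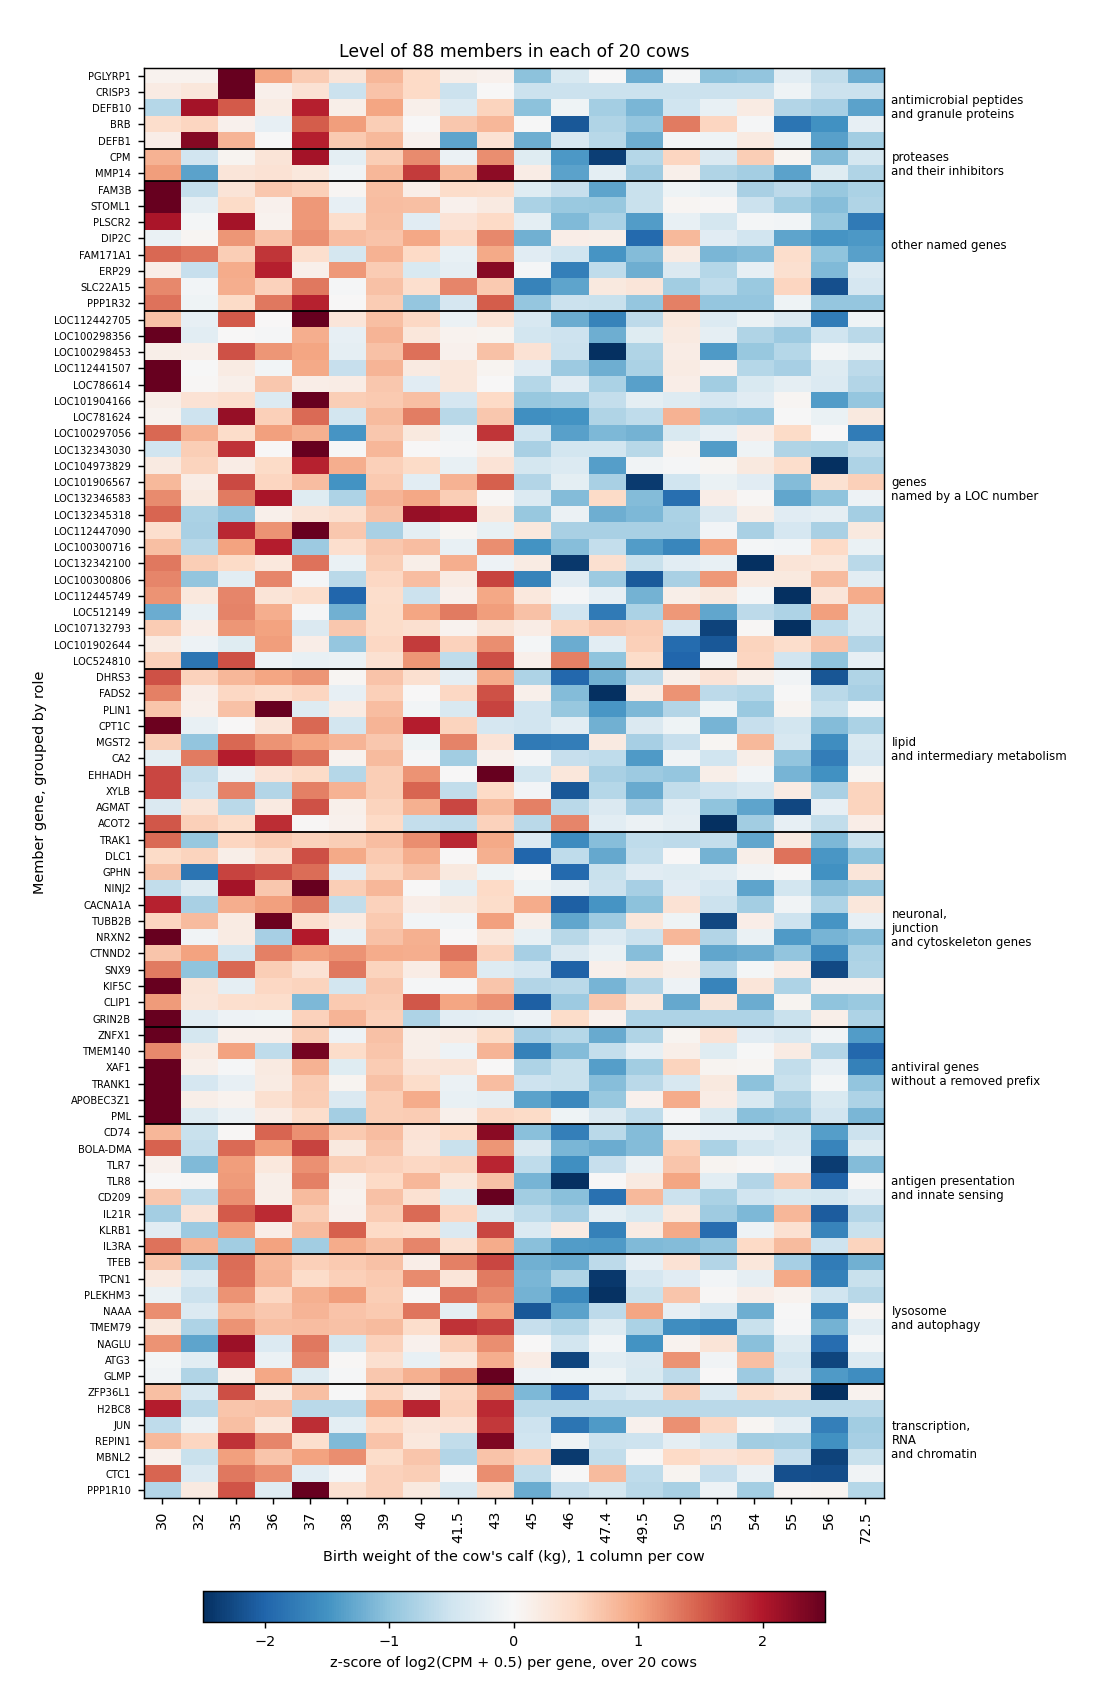
Level of 88 members (rows, grouped by role) in each of the 20 cows (columns, ordered by the BW of the calf in kg), as the z-score of log2(CPM + 0.5) per gene. Red squares lie mainly in the 10 columns up to 43 kg. The recipient of the 30 kg calf is the darkest column for the antiviral genes, and the recipients of the 46 and 56 kg calves are among the bluest for the antigen presentation and lysosome genes.

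Genes of antigen presentation and innate sensing made up 8 members. CD74, the invariant chain that escorts MHC class II molecules, ran from 3574 CPM in the recipient of the 46 kg calf through a median of 4289 to 5715 CPM in the recipient of the 43 kg calf. Its slope on BW was -0.0121 ± 0.0044 log2 per kg (SE, 19 cows). BOLA-DMA, which helps to load peptides onto class II molecules, ran from 99.2 through 114 to 140 CPM, with a slope of -0.0135 ± 0.0035 log2 per kg. Both were highest in cows of calves of at most 43 kg, and the levels of the cows of lighter and heavier calves overlapped. For CD74 the 10 cows of lighter calves lay between 4098 and 5715 CPM and the other 10 between 3574 and 4305 CPM.

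TLR7 and TLR8, endosomal receptors for single-stranded RNA, are neighbours on chromosome X in the reference gene order. TLR7 had 36.8 CPM in the recipient of the 56 kg calf, a median of 49.3 and 61.1 CPM in the recipient of the 43 kg calf. TLR8 had 48.6 CPM in the recipient of the 46 kg calf, a median of 80.8 and 98.9 CPM in the recipient of the 37 kg calf. Their slopes were shallow, at -0.0081 ± 0.0048 and -0.0119 ± 0.0069 log2 per kg, and without the recipient of the 56 kg calf they were -0.0041 and -0.0073. The steepest member of this role was IL3RA, the alpha chain of the interleukin-3 receptor and a marker of plasmacytoid dendritic cells, at -0.058 ± 0.0288 log2 per kg. IL3RA took 2 separate levels: 11 cows lay between 2.97 and 6.15 CPM and 9 cows between 0.501 and 1.35 CPM. The reference gene table lists this IL3RA entry under chromosome Y, and all samples are from cows. How reads shared between copies were counted is not stated, and its part in these levels was not tested. The higher level was found in 8 of the 10 cows of lighter calves and in 3 of the 10 cows of heavier calves. The remaining members of this role were CD209, a lectin of dendritic cells and macrophages, IL21R, the interleukin-21 receptor, and KLRB1, a receptor of natural killer and T cells, with slopes from -0.0308 to -0.0139.

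Lysosome and autophagy genes made up another 8 members. TFEB, the transcription factor that drives lysosomal genes, ran from 27.5 CPM in the recipient of the 56 kg calf through 37.7 to 47.4 CPM in the recipient of the 43 kg calf. Its slope was -0.0157 ± 0.0058 log2 per kg. TPCN1, a cation channel of endosomes and lysosomes, ran from 22.7 CPM in the recipient of the 47.4 kg calf through 32.5 to 39.1 CPM in the recipient of the 35 kg calf. NAAA, an acid amidase of lysosomes, and GLMP, a lysosomal membrane protein, had slopes of -0.0134 ± 0.0046 and -0.0137 ± 0.0092 log2 per kg. GLMP and TMEM79 are neighbours on chromosome 3. ATG3, an enzyme that conjugates lipid to autophagy proteins, and PLEKHM3 were among the 5 members of least negative slope, at -0.0063 ± 0.0038 and -0.0065 ± 0.0048 log2 per kg. The other members of the role were NAGLU, a lysosomal glucosaminidase, and TMEM79, and the 8 slopes lay between -0.0212 and -0.0063.

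Antiviral genes remained in the module after the prefix rule, because their names do not begin with the listed letters. They were 6 members: ZNFX1, TRANK1, PML, XAF1, APOBEC3Z1 and TMEM140. ZNFX1, a helicase that senses viral RNA, ran from 381 CPM in the recipient of the 72.5 kg calf through 533 to 1237 CPM in the recipient of the 30 kg calf. APOBEC3Z1, a cytidine deaminase that restricts retroelements and viruses, ran from 4.66 CPM in the recipient of the 46 kg calf through 11.2 to 57.4 CPM in the recipient of the 30 kg calf. Of the 6, only TMEM140 was highest in another cow, that of the 37 kg calf at 145 CPM. PML, the organiser of nuclear bodies, and XAF1, a proapoptotic interferon-induced gene, reached 295.5 and 166 CPM in the recipient of the 30 kg calf. The slopes of these 5 depended on that cow. Without it the slope of ZNFX1 went from -0.0254 to -0.0082 log2 per kg, that of APOBEC3Z1 from -0.06 to -0.0236, that of XAF1 from -0.0183 to -0.0082, that of PML from -0.0218 to -0.0103 and that of TRANK1 from -0.0256 to -0.011.

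Antimicrobial peptides and granule proteins were 5 members, of which 4 were tested, and had the most negative median slope of the roles (-0.0748 log2 per kg). PGLYRP1, a peptidoglycan-binding protein of neutrophil granules, was at 0 in the recipient of the 72.5 kg calf, had a median of 0.581 and reached 6.34 CPM in the recipient of the 35 kg calf. Its slope of -0.1603 ± 0.0394 log2 per kg was the most negative among the members and went to -0.109 without the recipient of the 35 kg calf. PGLYRP1 had a mean of 0.822 CPM and was at 0 in 2 cows, so its slope rests on few reads. The 10 cows of lighter calves lay between 0.603 and 6.34 CPM and the 10 cows of heavier calves between 0 and 0.56 CPM, so the groups did not overlap. PGLYRP1 was the 1 gene of 16269 (0.00615%) for which all cows of lighter calves lay above all cows of heavier calves. Genes with no overlap in the opposite direction were not counted. The gap lay between 15 counts in the recipient of the 30 kg calf (exact Poisson 95% interval, counting error only, 0.337 to 0.994 CPM) and 19 counts in the recipient of the 47.4 kg calf (0.337 to 0.874 CPM), so it was within counting error. DEFB10, a bovine beta-defensin, ran from 1.36 through 3.75 to 19.4 CPM, the last in the recipient of the 32 kg calf, with a slope of -0.0956 ± 0.0231. DEFB1, another beta-defensin, ran from 2.08 through 3.99 to 11.4 CPM, also highest in the recipient of the 32 kg calf. The defensins form a family of similar genes, and how reads shared between copies were counted is not stated. BRB, a secreted ribonuclease, ran from 7.05 through 22.4 to 47.4 CPM, with a slope of -0.0395 ± 0.0192.

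Lipid and intermediary metabolism accounted for 11 members. DHRS3, a retinaldehyde reductase, ran from 43.0 CPM in the recipient of the 56 kg calf through 73.5 to 103 CPM in the recipient of the 30 kg calf, and its slope was -0.0261 ± 0.0072 log2 per kg. CA2, carbonic anhydrase II of red cells and other tissues, ran from 2.19 through 4.57 to 10.5 CPM, with a slope of -0.0575 ± 0.0126. CPT1C, a brain-type carnitine palmitoyltransferase, ran from 5.95 through 8.19 to 21.8 CPM, with a slope of -0.0486 ± 0.0111. The others described here were the fatty acid desaturase FADS2, the lipid droplet coat PLIN1, the peroxisomal enzyme EHHADH, the thioesterase ACOT2, the glutathione transferase MGST2, AGMAT and XYLB, with slopes from -0.0414 to -0.0165.

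Genes named for neurons, junctions and the cytoskeleton were 12 members, of which 11 were tested. CTNND2, a delta-catenin of adherens junctions, ran from 1.12 CPM in the recipient of the 56 kg calf through 4.70 to 15.4 CPM in the recipient of the 41.5 kg calf. Its slope was -0.1349 ± 0.0231 log2 per kg. The 10 cows of lighter calves lay between 3.48 and 15.4 CPM and the 10 of heavier calves between 1.12 and 4.93 CPM, with a ratio of medians of 4.94. KIF5C, a kinesin heavy chain, ran from 0.101 through 0.669 to 4.10 CPM and was highest in the recipient of the 30 kg calf, without which its slope went from -0.0805 to -0.0406. CLIP1, a microtubule plus-end protein, ran from 264 through 367 to 439 CPM with a slope of -0.0118 ± 0.0054. The role also held the synaptic genes NRXN2, GPHN and CACNA1A, the tubulin TUBB2B, the mitochondrial transport adaptor TRAK1, NINJ2, DLC1 and SNX9. Its slopes ran from -0.1349 (CTNND2) to -0.0112 (SNX9), with a median of -0.0244.

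The transcription and RNA genes were 7 members, of which 6 were tested. ZFP36L1, which speeds the decay of AU-rich mRNAs, ran from 195 CPM in the recipient of the 56 kg calf through 267 to 313 CPM in the recipient of the 35 kg calf. JUN, a subunit of AP-1, ran from 98.8 CPM in the recipient of the 46 kg calf through 130 to 167 CPM in the recipient of the 37 kg calf, with a slope of -0.0068 ± 0.0058. CTC1, MBNL2, PPP1R10 and REPIN1 were the other tested genes of this role, with slopes from -0.0224 to -0.0085. Without the recipient of the 56 kg calf the slope of JUN was -0.0032. The protease genes included carboxypeptidase M, with a slope of -0.0175 ± 0.0097, and the membrane metalloproteinase MMP14, which did not exceed 1.04 CPM.

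Another 8 named members fell in none of these roles. FAM3B, a cytokine-like secreted protein, ran from 7.31 CPM in the recipient of the 47.4 kg calf through 12.4 to 57.9 CPM in the recipient of the 30 kg calf. Its slope of -0.0655 ± 0.0129 went to -0.0352 without the recipient of the 30 kg calf. STOML1, a stomatin-like protein of late endosomes, ran from 21.9 through 27.0 to 55.5 CPM, and its slope of -0.0292 ± 0.0065 went to -0.0177 without the same cow. STOML1 is the neighbour of PML on chromosome 21 (biweight midcorrelation 0.662). PLSCR2, a phospholipid scramblase, ran from 33.3 through 45.4 to 67.0 CPM, highest in the recipient of the 35 kg calf, with a slope of -0.022 ± 0.0051. FAM171A1, a membrane protein, ran from 0.118 through 1.15 to 4.71 CPM with a slope of -0.1099 ± 0.027. PPP1R32 was at 0 in 7 cows and did not exceed 20 counts, so its slope of -0.1137 ± 0.0528 rests on few reads. SLC22A15, DIP2C and the endoplasmic reticulum chaperone ERP29 had slopes of -0.046, -0.0258 and -0.0089.

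Of the 22 members with a LOC number, 21 were tested, with slopes from -0.1097 to -0.0064 and a median of -0.036. LOC100298356 and LOC112441507 are neighbours on chromosome 7 with a midcorrelation of 0.898. LOC100298356 ran from 1.41 through 2.89 to 29.5 CPM and LOC112441507 from 3.24 through 7.14 to 63.1 CPM, both highest in the recipient of the 30 kg calf. Without that cow their slopes went from -0.0979 to -0.0412 and from -0.093 to -0.039 log2 per kg. LOC786614 was at 0 in the recipient of the 49.5 kg calf and reached 2.73 CPM in the recipient of the 30 kg calf, and its slope of -0.1097 ± 0.0277 went to -0.0614. The LOC100300716 and LOC100300806 pair and the LOC100298453 and LOC512149 pair, both on chromosome 21, have 1 gene between them. The slope of LOC100300806 was -0.0064 ± 0.0143 and turned to 0.0019 without the recipient of the 30 kg calf, the 1 member to change sign. LOC524810, listed under immunoglobulin heavy chain synonyms, ran from 103 through 164 to 252 CPM with a slope of -0.01 ± 0.0102. Reads of overlapping or near-identical copies cannot be assigned with certainty for these genes.

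The eigengene held 45.9% of the variance of the 90 members and the next component 10.6%. Connectivity, the sum of a member's signed adjacencies with the other members, ran from 3.81 for GRIN2B to 23.0 for FAM3B with a median of 13.8. The 10 members of highest connectivity, in order, were FAM3B, STOML1, the noncoding RNA LOC112442705, DHRS3, CD74, TFEB, BOLA-DMA, TLR7, TPCN1 and PLSCR2. BOLA-DMA had the closest relation to the eigengene of the other members (R = 0.938, n = 20 cows). LOC107132793 (R = 0.316), LOC512149 (R = 0.328) and LOC101902644 (R = 0.331) had the loosest. When each cow was left out in turn, 8 of the 10 hubs stayed among the top 10 all 20 times, PLSCR2 17 times and TPCN1 9 times. The closest pair was TLR7 and TFEB (midcorrelation 0.906), followed by LOC100298356 with LOC112441507 and ZNFX1 with XAF1 (0.896). Outside the module, MIF4GD (R = 0.871), HFE (R = 0.865) and LOC100848288 (R = 0.855) followed the members' eigengene most closely.

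To describe which blood lineage or pathway the members followed, 17 scores were made, each the mean z-score of log2 CPM over marker genes that are not in the module. The members' median correlation was highest with the endosomal toll-like receptor score (0.454), the MHC class II score (0.431), the lysosome score (0.421) and the monocyte score (0.386). For these scores the median over all genes lay between -0.029 and -0.005. Of the 13 genes in the toll-like receptor score, only TLR3 and TLR9 are receptors. The rest are genes that act with them, such as MYD88, IRAK4, UNC93B1 and IRF5. TLR7 and TLR8 are members and so were not in the score. The medians with the erythroid, neutrophil granule and interferon-stimulated gene scores were 0.366, 0.36 and 0.338. Those with the eosinophil (3 genes), natural killer and T cell scores were -0.341, -0.331 and -0.331. B cells (0.227), plasma cells (0.189), neutrophils (0.164), platelets (0.149), plasmacytoid dendritic cells (0.027), classical dendritic cells (-0.028) and gamma delta T cells (-0.198) lay between. The scores are related to each other, at R = 0.914 between monocytes and lysosome and 0.722 between monocytes and toll-like receptors, so the lineages cannot be told apart where they move together.

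**Figure D2:**
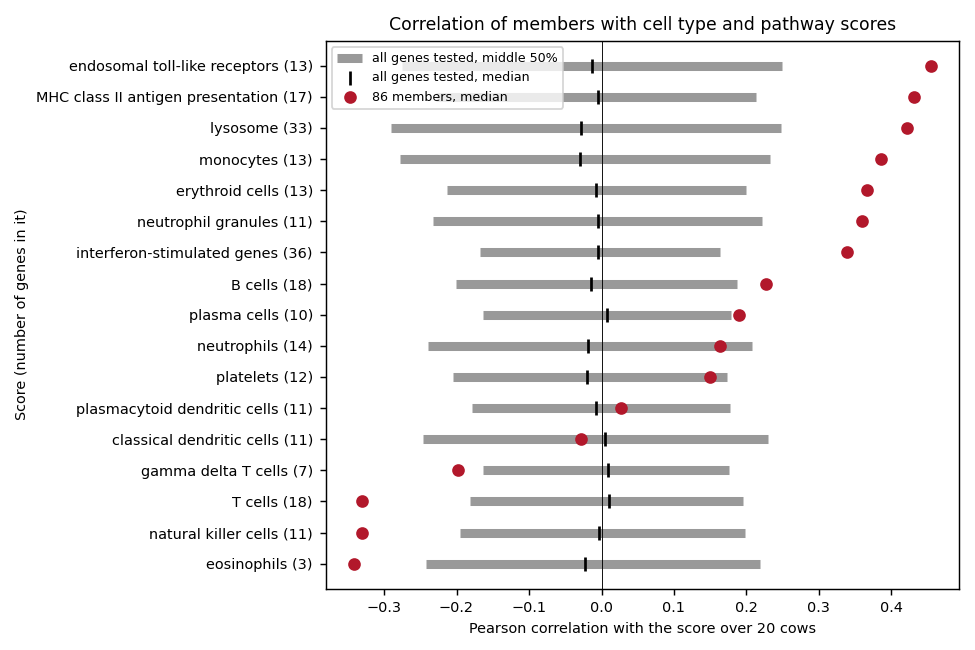
Pearson correlation over 20 cows (x axis) with each of the 17 scores (y axis, number of genes in parentheses). Red points are the median of the 86 tested members, black ticks the median and grey bars the interquartile range of all genes tested; the members lie right of the bar for the top 9 scores, at 0.454 for the toll-like receptors, and left of it for the bottom 4.

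Every gene was also fitted on each score with edgeR's quasi-likelihood test in the 20 cows. On the lysosome score, 26 of 86 members were higher at FDR below 0.05, beside 6.25% of all genes. On the monocyte score it was 19 members beside 5.03%, and on the toll-like receptor score 15 members beside 3.01%. On the interferon-stimulated gene score it was 13 members beside 0.474%. Among these 13, XAF1 and PML are on that marker list, and TLR7 and TLR8, called on the toll-like receptor score, are on its list. Such members were kept out of the scores but stay in the counts. On the eosinophil score 13 members were lower beside 1.06%, with only 3 detected markers behind that score. With BW as a covariate the counts were 14 for the lysosome score, 12 for monocytes, 3 for toll-like receptors and 4 for eosinophils. The share over all genes was not computed with this covariate, so those counts have no background beside them. The members were grouped by their likeness in these same cows, so they are not independent of each other and a count of them is a description. On the other 12 scores no member passed FDR below 0.05. At an unadjusted p below 0.05, 45 members were higher with MHC class II (6.29% of all genes), 29 with neutrophil granules (7.53%), 28 with erythroid genes (5.08%), 17 with B cells (6.94%), 15 with plasma cells (3.11%), 13 with neutrophils (7.92%), 11 with platelets (5.41%) and 5 with classical dendritic cells (8.84%). By the same measure 33 members were lower with natural killer cells (5.21%), 24 with T cells (5.40%), 8 with gamma delta T cells (2.20%) and 6 with plasmacytoid dendritic cells (4.07%).

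At FDR below 0.05 no member was called both on the interferon-stimulated gene score and on the monocyte, lysosome or toll-like receptor score. Those called on the first were FAM3B, STOML1, PML, XAF1, ZNFX1, TRANK1, APOBEC3Z1, CPT1C, KIF5C, NRXN2, LOC786614, LOC100298356 and LOC112441507, and none of these 13 was among the 30 members called on at least 1 of the other 3 scores. Their median correlation was 0.897 with the interferon-stimulated gene score and 0.202 with the lysosome score. The 26 members called on the lysosome score, among them TLR7, TLR8, CD74, BOLA-DMA, JUN, ZFP36L1, DEFB1 and DEFB10, had medians of 0.224 and 0.68. Each set was picked by its own score in these cows, so its median with that score is high by selection. Of all genes tested on both scores, 77 were higher with the first and 1014 with the lysosome score at this FDR, and 0 with both. At an unadjusted p below 0.05, 30 members were higher with the interferon-stimulated gene score (3.43% of all genes) and 43 with the lysosome score (13%). Of these, 9 were higher with both, which is 30% of the first and 20.9% of the second, beside 15.8% and 4.19% over all genes. BOLA-DMA, DHRS3, TMEM140 and carboxypeptidase M, called on the lysosome score, had correlations of 0.536, 0.513, 0.493 and 0.488 with the interferon-stimulated gene score. Of the 8 members with a lysosome or autophagy role, ATG3 was the 1 called on the lysosome score, and the correlations of TMEM79, GLMP and NAAA with it were 0.251, 0.294 and 0.384. TLR7 was higher by 0.119 log2 per SD of the lysosome score (FDR = 0.00979, edgeR quasi-likelihood test) and JUN by 0.153 (FDR = 0.00258). DEFB1, whose product is an epithelial and leukocyte defence peptide, was higher by 0.531 log2 per SD (FDR = 0.00286). Among the 10 hubs, FAM3B and STOML1 belonged to the 13 and 6 belonged to the 30. The 2 scores were nearly unrelated over the cows (R = 0.079).

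**Figure D3:**
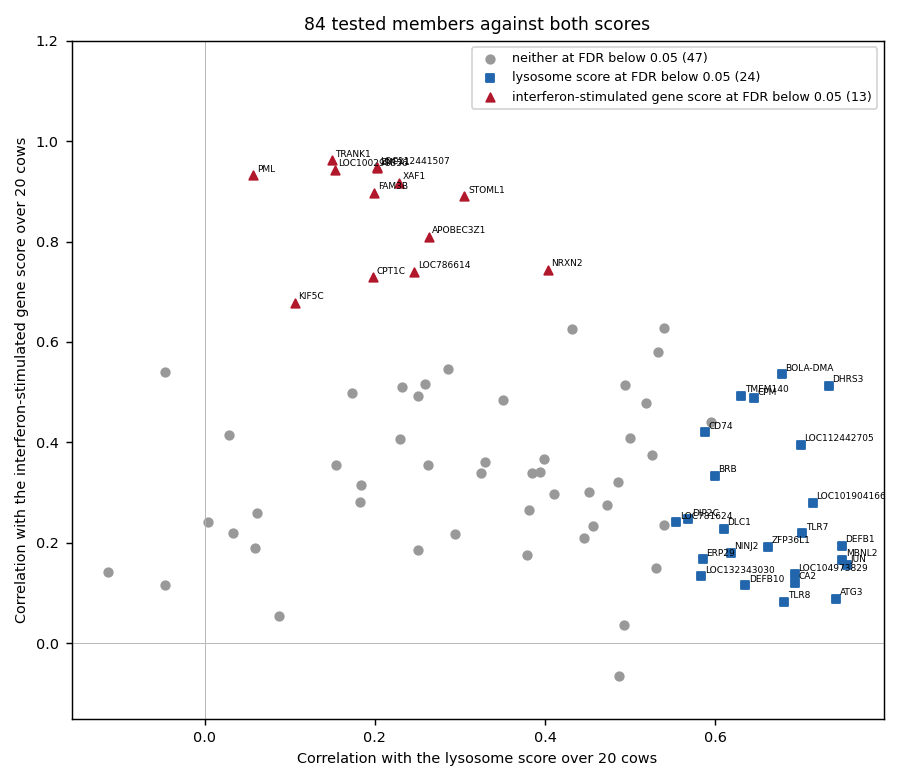
The 84 tested members shown, by their correlation over 20 cows with the lysosome score (x axis) and with the interferon-stimulated gene score (y axis). Red triangles are the 13 members called on the interferon-stimulated gene score and blue squares 24 of the 26 called on the lysosome score at FDR below 0.05; no member is both, and the 47 grey points are in neither.

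All 13 members that followed the interferon-stimulated gene score had their highest level in the recipient of the 30 kg calf, whose score lay 3.53 SD above the mean. Without that cow 5 of 16233 genes were called on the score, and 4 of them were members: LOC100298356, LOC112441507, ZNFX1 and TRANK1. The median correlation of the 13 with the score was then 0.697. The label of a module without interferon genes thus holds for the symbols and not for the levels. The eigengene of the 90 members was related to that of the 7 genes left out at R = 0.826 (rho = 0.94, n = 20), and at 0.944 without the recipients of the 30 and 72.5 kg calves. The 7 genes left out had slopes from -0.089 (MX2) to -0.009 (TRIM56), and IRF8, a factor of monocyte and dendritic cell development, was the 1 of them with its highest level in another cow, that of the 43 kg calf at 151 CPM. Royalblue is the other module with a negative relation to BW. The eigengene of its 32 genes had R = 0.64 with that of the members.

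In the fit on BW (19 cows, without that of the 72.5 kg calf, as in the methods of the study), all 86 tested members had a negative slope, beside 53.4% of the 16206 genes. The median was -0.0236 log2 per kg for members and -7e-04 for all genes. At an unadjusted p below 0.05, 60 of the 86 were lower with heavier calves, beside 7.08% of all genes, and at FDR below 0.1 it was 8, beside 0.154%. These 8 were FAM3B, STOML1, PLSCR2, CPT1C, CTNND2, CA2, LOC100298356 and LOC112441507. No member passed FDR below 0.05 with edgeR, where the smallest value over all genes was 0.0753. The study, with DESeq2 in 19 cows, did report genes associated with BW in both directions at FDR below 0.05. Calls at this threshold thus differ between the 2 analyses. The module was selected on this relation in these cows, so the counts describe it and do not test it. By role, the share at an unadjusted p below 0.05 was 6 of 6 antiviral genes, 8 of 8 other named genes, 10 of 11 neuronal and cytoskeleton genes, 9 of 11 metabolic genes, 3 of 4 antimicrobial genes, 13 of 21 LOC genes, 5 of 8 lysosome genes, 3 of 8 antigen presentation genes, 3 of 6 transcription genes and 0 of 3 protease genes.

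**Figure D4:**
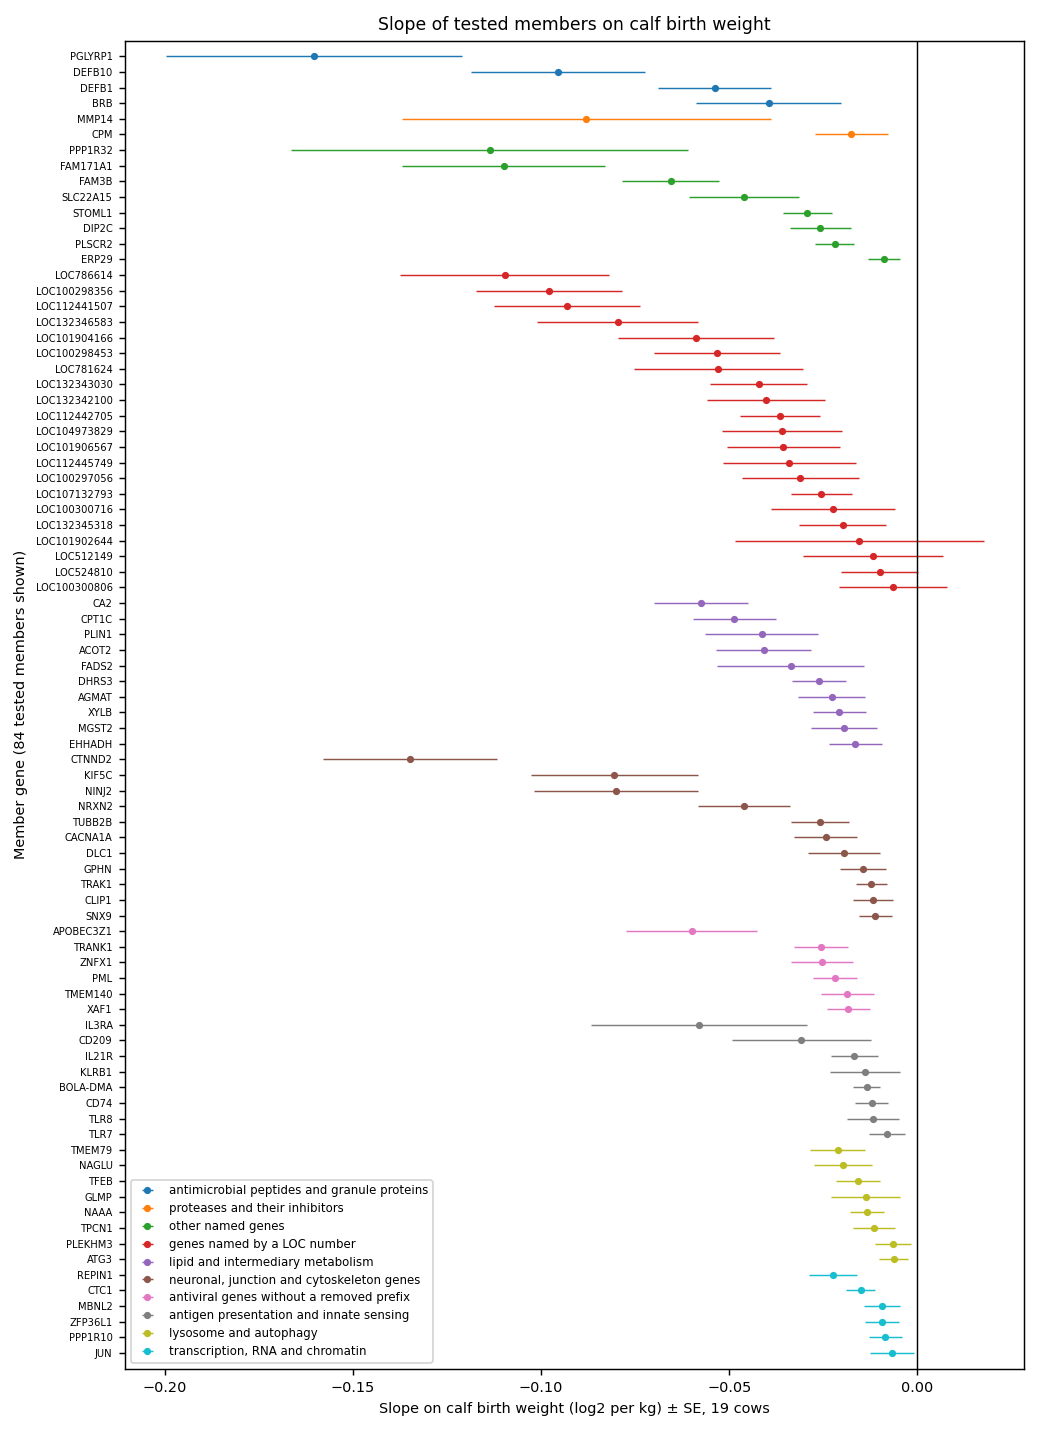
Slope on calf BW in log2 per kg (x axis, points with SE bars, 19 cows) of 84 tested members (y axis), coloured by role and ordered by the median slope of the role. All points lie left of 0, from -0.1603 for PGLYRP1 to -0.0063 for ATG3, and the antimicrobial, other named and LOC groups hold most of the steep slopes.

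With the interferon-stimulated gene score as a covariate, 35 members were below an unadjusted p of 0.05 with a median slope of -0.019. With the MHC class II score it was 42 members (-0.0176), with the lysosome score 51 (-0.0211), with the toll-like receptor score 52 (-0.0209), with the monocyte score 54 (-0.0218), with the B cell score 57 (-0.0219) and with the neutrophil score 66 (-0.0238). The share over all genes was not computed in these fits, so whether the counts are particular to the members was not tested. The scores themselves were related to BW over the 20 cows at R = -0.538 for interferon-stimulated genes, -0.363 for the lysosome, -0.359 for toll-like receptors, -0.357 for neutrophil granules, -0.347 for erythroid genes, -0.283 for monocytes, -0.277 for MHC class II and 0.363 for eosinophils. The interferon-stimulated gene score was highest in the recipient of the 30 kg calf (3.53 SD) and lowest in that of the 72.5 kg calf (-1.18 SD). Its R without these cows was not computed. Of the 36 interferon-stimulated genes outside the module, 22 were lower with heavier calves at an unadjusted p below 0.05, beside 7.08% of all genes. By the same measure it was 3 of 33 lysosome genes, 3 of 17 MHC class II genes, 0 of 13 monocyte genes and 0 of 13 genes of the toll-like receptor score. These counts include the recipient of the 30 kg calf and were not repeated without it. Without the recipient of the 30 kg calf the median slope of the 13 interferon-following members went from -0.0486 to -0.0335, while that of the other 73 was -0.0212 with it and -0.0216 without it.

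The eigengene had R = -0.683 and rho = -0.719 with BW over the 20 cows, and R = -0.686 without the recipients of the 30 and 72.5 kg calves. Within the 10 cows of calves of at most 43 kg it had R = -0.06 and rho = -0.176, and within the 10 cows of calves of at least 45 kg R = 0.091 and rho = 0.285. These sets span 13 and 27.5 kg of the 42.5 kg range of BW, and a narrower range tends to lower a correlation. The eigengene ran from -0.055 (the recipient of the 32 kg calf) through a median of 0.212 to 0.371 in the first 10, and from -0.33 through -0.203 to -0.019 (the recipient of the 50 kg calf) in the others. Except for the recipient of the 32 kg calf, each recipient of a lighter calf lay above each recipient of a heavier calf. The single members went both ways within the sets, with medians of 0.033 and -0.002. Within the lighter 10 the correlation with BW ran from -0.617 (LOC786614) to 0.755 (GLMP) and was positive for 45 of 86, and within the heavier 10 it ran from -0.789 (GLMP) to 0.709 (IL3RA) and was positive for 42. It was negative within both sets for 26 members, such as PML (-0.407 and -0.727) and PLSCR2 (-0.454 and -0.45), and positive within both for 27. The median ratio of the CPM medians, lighter over heavier, was 1.29, and it exceeded 2 for 10 of the tested members.

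**Figure D5:**
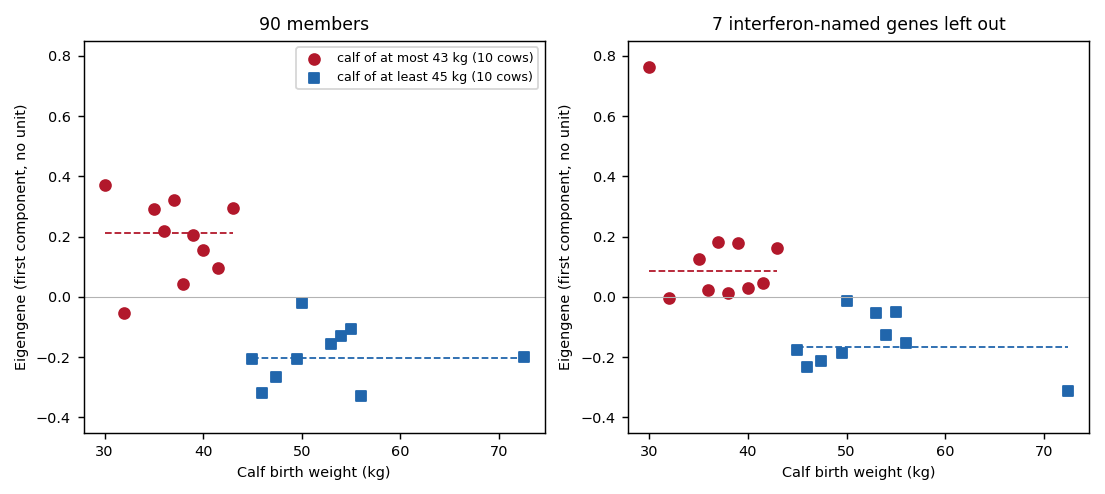
Eigengene (y axis, no unit) of the 90 members (left) and of the 7 interferon-named genes left out (right) against calf BW in kg (x axis), 1 point per cow, with dashed lines at the median of each set of 10 cows. On the left the median is 0.212 for calves of at most 43 kg and -0.203 for heavier calves; on the right the recipient of the 30 kg calf stands apart from the other 19.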

How the data were processed

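Whole blood RNA from 20 cows was sequenced by the study as paired 100-base reads, trimmed with Trimmomatic, aligned with STAR 2.7.0b to bosTau 9 with an ARS-UCD1.3 index and counted per gene with featureCounts (Subread 2.0.3), per the submitters' processing notes and the study's methods. The strand setting and the treatment of multi-mapping reads are not given in the sources used here, and the library kit is named differently in the labels and in the methods. The deposited values are raw counts per Entrez gene, 1 file per cow, with totals of 24632077 to 39892111.

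Members were read from the study's list of module genes (gene and module columns), and 10 symbol prefixes removed 7 of them. Symbols, biotypes and gene order came from the RefSeq table of ARS-UCD2.0, another build than the files, so no coordinates are given and sequences are not analysed here. All 37063 identifiers matched it. The members and the marker lists were chosen with earlier results of these data known. Roles were assigned by hand from gene names, and the split into 10 and 10 cows was made after the values were seen.

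Genes that reached 10 counts in 5 or more cows were fitted with edgeR 4.0.16 (TMM, quasi-likelihood test, R 4.3.3) on BW in 19 cows and on each of 17 scores in 20 cows, with Benjamini-Hochberg adjustment (FDR) over all genes tested. CPM values used TMM library sizes, and log2 CPM a prior count of 2. The eigengene is the first component of values from the variance stabilizing transformation of DESeq2 1.42.0. Connectivity sums ((1 + biweight midcorrelation)/2) raised to the power 7, the signed adjacency of the study. Scores are mean z-scores of log2 CPM over a list, without module genes, divided by their SD. The fits were tested on simulated data first. Replicates were separate cows with 1 library each, so the spread includes animal and technical differences. Named genes were the hubs, the members of the steepest and flattest slopes, those with most and fewest counts, those on a marker list, neighbours in gene order, members and others by correlation with the eigengene, and the removed genes. Others were named after their values were seen. The values of 2 members are not reported here by name or in the figures, and they stay in the counts and medians. Alternatives were DESeq2, limma 3.58.1 with voom, other normalization and filters, all 20 cows, score covariates and leaving out each cow. A further 3 score covariates (toll-like receptors, MHC class II and lysosome) were added after the data had been seen. Dam age and parity are not in the labels, and their part was not tested. The study gives the age of the recipients as a range of years and not per cow. It describes the recipients both as Angus and as lactating dairy cows.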

Additional observations from a re-analysis of the deposited data

How the results depend on the processing

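Outside the leave-one-out fits, 163 alternative values moved by less than the jackknife spread over cows or, for counts, by at most 1.5 times, 16 moved more, and none reversed. The median slope of the members on BW was -0.0171 log2 per kg with all 20 cows, -0.019 with the interferon-stimulated gene score as a covariate and -0.0176 with the MHC class II score, and 35 members were lower at an unadjusted p below 0.05 with the first of these scores. Leaving out each cow in turn gave median slopes from -0.0273 to -0.0221, 85 to 86 members with a negative slope, and 49 (without the recipient of the 56 kg calf) to 66 (without that of the 32 kg calf) at an unadjusted p below 0.05. By 1 cow or another, 29 of the 86 slopes moved by over 1.5 times, 12 of them most by the recipient of the 30 kg calf and 8 by that of the 56 kg calf. The correlation of the eigengene with BW ran from -0.736 to -0.642, and 8 to 10 hubs were shared. With the eigengene of the removed genes, the rank correlation over all cows was 0.94. The Pearson correlation was 0.826, and it ran from 0.815 to 0.924 with each cow left out in turn.

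With BW as a covariate, the members called at FDR below 0.05 were 12 on the monocyte score, 14 on the lysosome score, 3 on the toll-like receptor score, 4 on the eosinophil score, 4 on the T cell score and 1 on the B cell score. Without a filter on low counts, 4 were called on the MHC class II score and 1 each on the plasma cell, neutrophil granule and natural killer scores. For neither setting was the share over all genes computed. Without the recipient of the 30 kg calf, 4 were called on the interferon-stimulated gene score. The causes of these shifts were not tested. DESeq2 called 61 members lower at an unadjusted p below 0.05 and limma with voom 59. For these counts of slopes on BW, and for those with a covariate or with a cow left out, the share over all genes was not computed. Promoter motifs were not run. Depth limits the members near 1 CPM: of the 90, 11 had a mean below 1 CPM, where single reads move a value. No paired analysis was possible because all cows form 1 group.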
